A study of Mus musculus with 2 samples.

Results

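Interferons act on cells through receptor chains at the surface, Janus kinases bound to those chains, and STAT transcription factors that the kinases phosphorylate. Type I interferons bind IFNAR1 and IFNAR2, which carry TYK2 and JAK1, whereas type II interferon binds IFNGR1 and IFNGR2, which carry JAK1 and JAK2. STAT2 and IRF9 are parts of the complex ISGF3, which binds the interferon-stimulated response element (ISRE), and STAT dimers bind the gamma-activated site (GAS). SOCS1 binds the kinases and stops the signal. Described here are 9 genes of this route: Ifnar1, Ifnar2, Ifngr1, Ifngr2, Jak1, Jak2, Tyk2, Stat2 and Socs1. They were picked by name among the 26082 genes of the expression tables. All 9 had more than 3 counts in each library, and none had an FPKM under 1.

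The libraries were made from primary fibro-adipogenic progenitors (FAPs), stromal cells of muscle that can become adipocytes, sorted from mouse hind limbs and wild type by the labels. One library came from FAPs given TGFBR3 overexpressing plasmids and the other from FAPs given the vector. Both were labelled as under adipogenic differentiation, in a medium that held insulin at 10 μg/ml, dexamethasone at 0.25 μM and IBMX at 0.5 mM beside 20% FBS. The labels give neither the hours in this medium nor the age or number of the mice. As each condition has 1 library, the differences have no replicate check, no p-value is given, and the 95% confidence intervals cover counting error only.

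In all, 62321027 counts were deposited for the library labelled TGFBR3 overexpression, called the TGFBR3-labelled library from here on, and 83779203 for the vector control. Levels are FPKM, counts scaled by gene length and a library total, and differences are log2 ratios of (FPKM + 1), which understate the change of low genes. Over the 10626 genes whose FPKM reached 1 in each library the median log2 ratio was 0.13, and a centred value is the ratio minus this shift. Log2 ratios also declined with the GC content of the transcripts, whose poorest bin of 20 had a median of 0.46 and whose richest had −0.25. Tgfbr3, the gene to be overexpressed, had an FPKM of 36.9 against 35.1, with a log2 ratio of 0.07 (95% CI 0.04 to 0.10) and a centred value of −0.058. The deposited level of Tgfbr3 was therefore not raised beyond the median gene, and the libraries are named by their labels. Whether RNA from the plasmid counts towards this gene is not given in the sources used here. The paper also lists real-time PCR of TGFBR3 in FAPs given the plasmids or the vector, whose values are not used here. Of 10 FAP markers, Pdgfra (FPKM 30.5 and 32.6), Pdgfrb (88.9 and 94.3) and Ly6a (1013 and 706) were plainly present, and Lum was low (0.27 and 0.03). The abundant collagen genes of the same list were lower in the TGFBR3-labelled library, with an FPKM of 95.8 against 199 for Col3a1 (log2 ratio −1.05, the only FAP marker past 2-fold) and 467 against 870 for Col1a1 (−0.89), as was Cd34 (−0.30). Of the 10 FAP markers 6 were lower and 4 higher. The higher ones were Osr1 (FPKM 24.8 against 16.2, log2 ratio 0.58), Ly6a (0.52), Lum (0.30) and Dcn (0.14). The summed FPKM of 9 macrophage markers was 0.91 in the TGFBR3-labelled library and 0.54 in the control, with Adgre1, Tyrobp and Fcer1g at 0 in both. It was 0.29 and 0.09 over 2 T and NK cell markers, of which Nkg7 was at 0 in both, 2.17 and 2.03 over 6 endothelial markers, and 1.65 and 1.30 over 5 muscle cell markers. Of the 9 T and NK cell markers listed, 7 were not analysed, so that sum is Lck alone (60 and 26 counts). Among the 8 muscle cell markers, 3 were not analysed. The summed FPKM of 8 adipocyte markers was 47.6 and 81.2. Of these 6 were lower, with Cfd (log2 ratio −1.29), Car3 (−1.15) and Adipoq (−1.07) past 2-fold. The other 2, Pparg (0.29) and Lpl (0.16), were higher. In bulk RNA, more cells of a type and more RNA per cell cannot be told apart.

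Promoter windows are shown first for the 4 members whose window holds the letters of an ISRE core or of a GAS. Each runs from 250 bases before to 50 bases after the RefSeq start of the gene (GRCm38.p6, the build also called mm10), written 5′ to 3′ on the strand of the gene, with the matched letters in capitals. The ISRE core was searched as GAAANNGAAA and the GAS as TTCNNNGAA, on both strands. The Stat2 window is chr10:128270248-128270547 on the plus strand, the Socs1 window chr16:10785487-10785786 on the minus strand, the Ifnar1 window chr16:91484965-91485264 on the plus strand and the Ifnar2 window chr16:91372533-91372832 on the plus strand.
Stat2: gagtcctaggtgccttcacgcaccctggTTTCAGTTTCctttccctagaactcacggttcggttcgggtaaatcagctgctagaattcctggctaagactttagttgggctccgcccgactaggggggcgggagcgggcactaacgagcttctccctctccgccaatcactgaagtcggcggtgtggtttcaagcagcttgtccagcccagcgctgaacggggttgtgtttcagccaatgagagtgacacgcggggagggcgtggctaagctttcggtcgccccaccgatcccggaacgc
Socs1: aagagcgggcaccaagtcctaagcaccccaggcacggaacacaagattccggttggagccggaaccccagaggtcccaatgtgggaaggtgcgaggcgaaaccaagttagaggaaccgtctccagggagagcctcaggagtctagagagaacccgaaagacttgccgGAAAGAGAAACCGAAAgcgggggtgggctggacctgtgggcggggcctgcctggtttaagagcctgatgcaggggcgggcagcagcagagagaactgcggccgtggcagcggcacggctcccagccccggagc
Ifnar1: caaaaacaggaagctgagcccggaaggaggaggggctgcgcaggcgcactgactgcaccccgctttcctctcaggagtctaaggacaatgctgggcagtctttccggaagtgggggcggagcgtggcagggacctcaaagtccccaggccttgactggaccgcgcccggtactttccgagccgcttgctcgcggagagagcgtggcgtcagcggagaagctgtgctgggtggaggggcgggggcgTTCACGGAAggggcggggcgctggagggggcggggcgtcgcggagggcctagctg
Ifnar2: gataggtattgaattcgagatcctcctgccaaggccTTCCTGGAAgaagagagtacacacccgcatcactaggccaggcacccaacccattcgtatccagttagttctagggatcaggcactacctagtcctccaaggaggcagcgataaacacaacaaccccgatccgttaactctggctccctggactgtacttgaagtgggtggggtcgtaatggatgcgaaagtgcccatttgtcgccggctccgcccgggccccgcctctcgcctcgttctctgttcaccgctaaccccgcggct

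In the Stat2 window the ISRE core letters lay on the opposite strand, at positions −222 to −213 from the start. In the Socs1 window a pair of overlapping matches covered positions −83 to −68. The GAS letters, which read alike on both strands, lay at −214 to −206 in Ifnar2 and at −5 to 4, across the start, in Ifnar1. The windows of Ifngr1, Ifngr2, Jak1, Jak2 and Tyk2 held neither motif, which says only that these letters are not in those 300 bases. ISRE core letters were present in 3.44% of all 32851 windows and GAS letters in 8.30%. They were present in 14 and 6, respectively, of 24 interferon-stimulated genes that have a window. Here a gene counted once if any of its windows matched, whereas the shares over all windows are per window, so the units differ. The letters are a description and not a measured binding site.

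**Figure D1:**
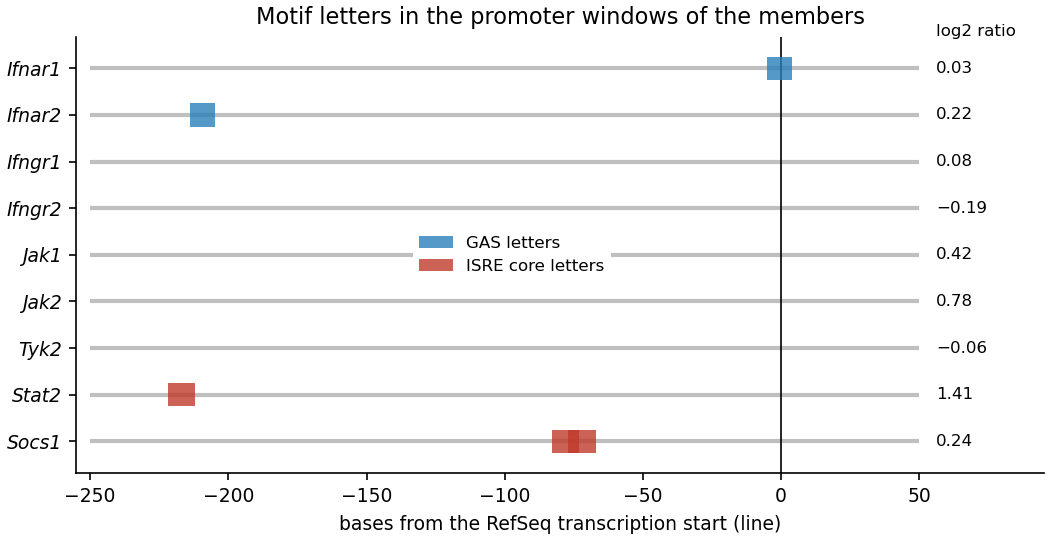
Positions of the matched letters in the promoter windows of the 9 members, in bases from the RefSeq start (vertical line), with the log2 ratio of each gene at the right. Of the genes with ISRE core letters, Stat2 stood at a log2 ratio of 1.41 and Socs1 at 0.24.

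Of the 9 members, only Stat2 reached a 2-fold higher level in the TGFBR3-labelled library, and none was 2-fold lower. Among all genes tested, 1.41% were at least 2-fold higher and 0.475% were 2-fold lower, and 3.14% were higher among the 11213 whose mean FPKM reached 1, here called expressed genes. A single member in 9 is too few to be read against these shares. At a threshold of 1.5-fold, Jak2 joined Stat2, where 13.3% of the expressed genes passed. The log2 ratio was above 0 for 7 members and below 0 for Ifngr2 and Tyk2. The median of the members was 0.22, against 0.13 over the genes whose FPKM reached 1 in each library, as theirs did, and 0.03 over all genes. After centring, 5 members were above 0 and 4 below, as Ifnar1 and Ifngr1 turned.

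The receptor chains hardly differed between the libraries. Their log2 ratios ran from −0.19 to 0.22, and their summed FPKM was 82.0 in the TGFBR3-labelled library and 79.5 in the control.

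Ifnar1 encodes the type I chain that carries TYK2 and spans bases 91485238 to 91507441 of chromosome 16 (mm10). Its counts of 4823 and 6434 gave an FPKM of 11.96 in the TGFBR3-labelled library and 11.72 in the control. The log2 ratio was 0.03 (95% CI −0.02 to 0.08), with an interval that includes 0, and the value was negative after centring (−0.10).

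Ifnar2 encodes the other type I chain, which carries JAK1, and lies on chromosome 16 from 91372783 to 91405589. Its FPKM was 26.3 against 22.5, from 5930 and 6913 counts, with a log2 ratio of 0.22 (95% CI 0.17 to 0.26). The centred value was 0.09, and the value was 0.00 with TMM scaling of CPM. Gm21970, annotated as a transcript running from Ifnar2 into Il10rb, shares 315 exonic bases with Ifnar2 on the same strand and was not analysed here. Within a library Ifnar2 stood above its partner, at 2.19 times the FPKM of Ifnar1 in the TGFBR3-labelled library and 1.92 times in the control.

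Ifngr1, which encodes the chain that binds interferon gamma with high affinity, lies on chromosome 10 from 19591949 to 19610229. Its FPKM was 24.4 and 23.1, from 4712 and 6075 counts, with a log2 ratio of 0.08 (95% CI 0.02 to 0.13) that turned to −0.05 after centring. Ifngr2 encodes the chain that carries JAK2 and lies on chromosome 16 from 91547072 to 91565623. It was the only receptor chain with a lower level in the TGFBR3-labelled library as deposited, with an FPKM of 19.4 against 22.2 from 4962 and 7737 counts. Its log2 ratio of −0.19 (95% CI −0.24 to −0.14) was negative under all 8 alternative settings, from −0.41 to −0.19. The ratio of Ifngr1 to Ifngr2 was accordingly 1.26 in that library and 1.04 in the control.

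Of the receptor chains, 3 lie in a single stretch of 192.841 kb on chromosome 16, in the order Ifnar2, Il10rb, Ifnar1 and Ifngr2 on the plus strand. Il10rb, a chain shared by the receptors for interleukin 10 and type III interferons, had an FPKM of 8.69 and 10.2, for a log2 ratio of −0.21 (95% CI −0.28 to −0.14). As deposited, Ifnar2 was thus higher, and Il10rb and Ifngr2 were lower, in the TGFBR3-labelled library, all by far less than Stat2. Of the 12 genes annotated in the stretch, the other 4 in the tables were scarce: A930006K02Rik had 8 and 12 counts, Gm7856 had 0 and 6, Gm7860 had 34 and 15, and Gm46562 had 0 in both.

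**Figure D2:**
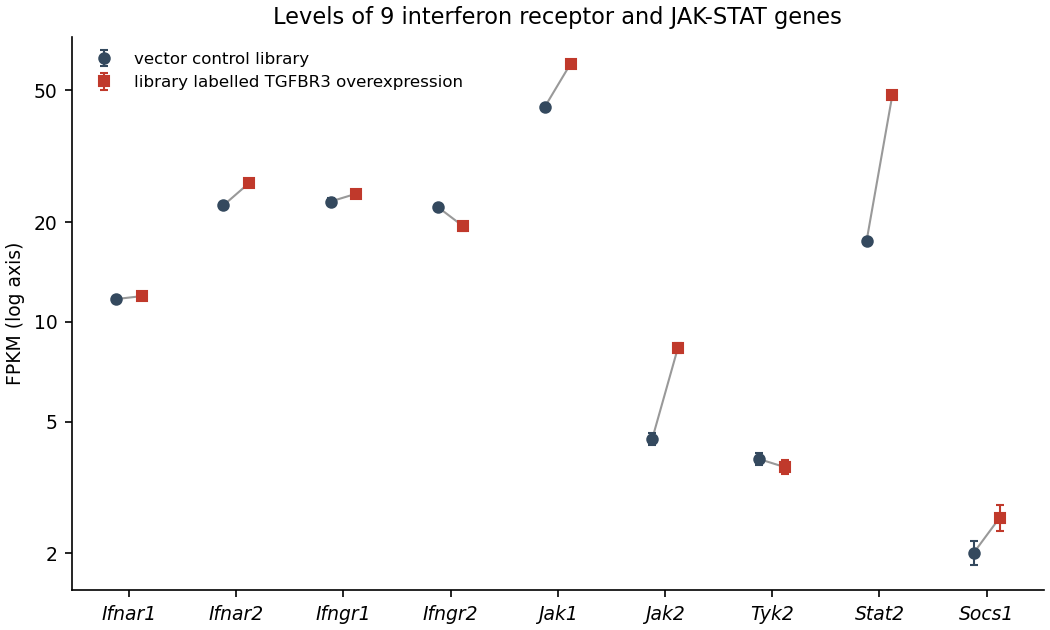
FPKM of the 9 members in each library on a log axis, with 95% Poisson intervals of the counts as bars, many of them smaller than the symbols. Stat2 (17.6 to 48.5), Jak2 (4.43 to 8.35) and Jak1 (44.7 to 60.3) show the steepest lines, and the receptor chains are nearly flat.

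The kinases differed from each other. Jak1, the kinase shared by both receptors, lies on chromosome 4 from 101152367 to 101265282 and had the highest level of the members in each library. Its FPKM was 60.3 in the TGFBR3-labelled library and 44.7 in the control, from 29553 and 29835 counts. On the log2 scale it was 0.42 higher (95% CI 0.40 to 0.45), or 0.30 after centring, with values of 0.21 with TMM scaling and with the trend over exon length removed.

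Jak2, the kinase of the interferon gamma receptor and of many hormone and cytokine receptors, lies on chromosome 19 from 29251828 to 29313080. Its FPKM was 8.35 against 4.43, from 2852 and 2058 counts, and it was the member with the second largest ratio. On the log2 scale the difference was 0.78 (95% CI 0.71 to 0.85), and 6.02% of the expressed genes had a ratio as high or higher. Jak2 stayed short of 2-fold under all 8 alternative settings, at 0.91 without the added 1 and at 0.44 after correction for GC content. The GC content of its transcripts was 44.2%.

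Tyk2, the kinase of IFNAR1, lies on chromosome 9 from 21104068 to 21131243 and was low in both libraries. Its FPKM was 3.64 and 3.85, from 1700 and 2441 counts, with a log2 ratio of −0.06 (95% CI −0.13 to 0.01), an interval that also includes 0. An antisense gene, 1700084C06Rik, overlaps 554 of its exonic bases on the opposite strand. As deposited, Tyk2 was thus the only kinase that was not higher in the TGFBR3-labelled library, although the sign turned to 0.04 after correction for GC content.

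Ratios between genes within a library do not depend on the scale of that library, but their changes between the libraries still carry the trend over GC content. Jak2 stood at 0.199 times the FPKM of its receptor chain Ifngr2 in the control and at 0.43 times in the TGFBR3-labelled library, a change of 1.11 on the log2 scale (95% CI 1.01 to 1.21). Tyk2 stood at 0.328 and 0.304 times the FPKM of Ifnar1, a change of −0.11 (95% CI −0.21 to −0.01). After correction for GC content the log2 ratio was 0.04 for Tyk2 and −0.16 for Ifnar1, so the direction of this change depended on the setting. For Jak2 and Ifngr2 the corrected values were 0.44 and −0.32, and that direction was kept. Jak1 stood at 1.99 and 2.30 times the FPKM of Ifnar2 and at 1.94 and 2.47 times that of Ifngr1. Jak2 and Tyk2 were nearly level in the control, where the ratio of Jak2 to Tyk2 was 1.15, and in the TGFBR3-labelled library it was 2.29.

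**Figure D3:**
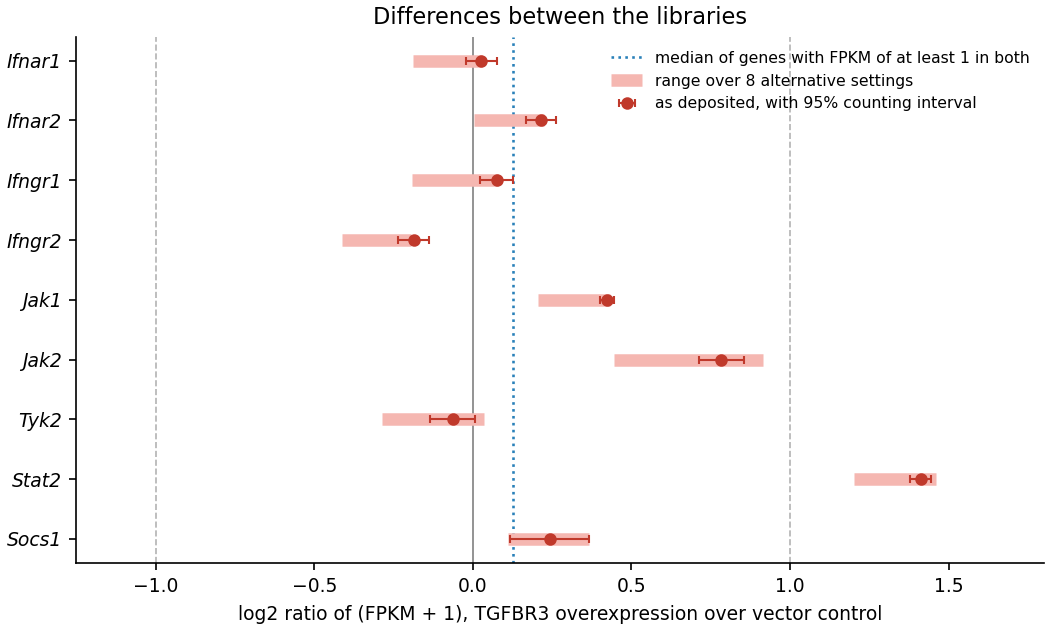
Log2 ratios of (FPKM + 1) of the 9 members with 95% counting intervals, beside the range over 8 alternative settings (pale bars), the 2-fold lines (dashed) and the median of 10626 genes (dotted). Stat2 lies past the 2-fold line throughout (1.2 to 1.46) and Jak2 short of it (0.44 to 0.91). The pale bars of Ifnar1, Ifngr1 and Ifngr2 end to the left of the dotted line, with Ifngr2 farthest (−0.41 to −0.19), and that of Ifnar2 spans it.

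Stat2, which encodes a part of ISGF3 and is itself an interferon-induced gene, had the largest difference of the members. It lies on chromosome 10 of mm10 from 128270559 to 128292849, starting after the window shown above, since the RefSeq start lies further upstream than that of GENCODE. Its counts were 19482 in the TGFBR3-labelled library and 9635 in the control, so it was higher even before the larger total of the control is considered. The FPKM was 48.5 against 17.6, a 2.75-fold difference without the added 1. Its log2 ratio of 1.41 (95% CI 1.38 to 1.45) lay between 1.2 and 1.46 under the 8 alternative settings. Of the 11213 expressed genes, 154 (1.37%) had a ratio as high or higher. Only 1.85% of its 31-base words occur in transcripts of other genes.

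Set against the receptor chains, Stat2 was higher in the TGFBR3-labelled library relative to each of them. In the control its FPKM was 1.5 times that of Ifnar1, 0.783 times that of Ifnar2, 0.762 times that of Ifngr1 and 0.791 times that of Ifngr2. In the TGFBR3-labelled library the same ratios were 4.05, 1.85, 1.99 and 2.5. Stat2 thus passed from below to above 3 of the 4 chains. The change was smallest against Ifnar2, at 1.24 on the log2 scale (95% CI 1.18 to 1.30), and largest against Ifngr2, at 1.66 (95% CI 1.60 to 1.72). Against the median of the 4 chains the difference of the log2 ratios was 1.36.

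**Figure D4:**
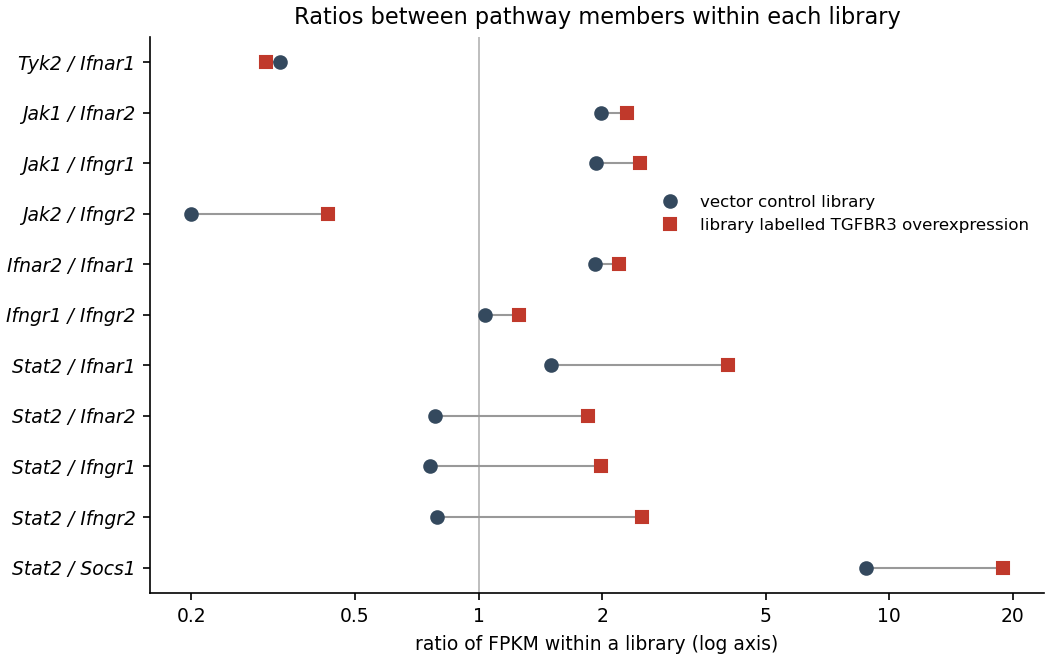
Ratio of FPKM between members of the route within each library, on a log axis, with 1 (equal levels) as a vertical line. The ratios of Stat2 to Ifnar2, Ifngr1 and Ifngr2 lie below 1 in the control (0.762 to 0.791) and above 1 in the TGFBR3-labelled library (1.85 to 2.5).

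Socs1, the inhibitor of the kinases, lies on chromosome 16 from 10782240 to 10785536 and had the lowest level of the members in each library. Its FPKM was 2.56 in the TGFBR3-labelled library and 2.01 in the control, from 506 and 541 counts. This was a log2 ratio of 0.24 (95% CI 0.12 to 0.37), or 0.12 after centring, with a value of 0.37 after correction for GC content. Stat2 stood at 8.75 times the FPKM of Socs1 in the control and at 18.9 times in the TGFBR3-labelled library, a change of 1.11 (95% CI 0.93 to 1.29). Socs1 was thus lower relative to Stat2 in that library, though both windows hold ISRE core letters.

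By level, the order in the control was Jak1, Ifngr1, Ifnar2, Ifngr2, Stat2, Ifnar1, Jak2, Tyk2 and Socs1. The Poisson intervals of neighbors overlapped between Ifngr1 (22.5 to 23.7) and Ifnar2 (21.9 to 23.0), and between Ifnar2 and Ifngr2 (21.7 to 22.7). In the TGFBR3-labelled library, Stat2 stood second after Jak1, followed by Ifnar2, Ifngr1, Ifngr2, Ifnar1, Jak2, Tyk2 and Socs1, and no intervals of neighbors overlapped. Of the expressed genes, 76.9% had a lower FPKM than Stat2 in the control and 90.7% in the TGFBR3-labelled library. For Jak2 these shares were 41.2% and 55.5%, and for Socs1 19.4% and 20.2%.

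The other genes of the route were taken from lists compiled from general knowledge. Irf9, the DNA-binding part of ISGF3, had an FPKM of 26.8 against 13.2, for a log2 ratio of 0.97 (95% CI 0.93 to 1.01), so its interval spans the 2-fold threshold. The transcripts of STAT proteins used by other cytokines differed little, with log2 ratios of 0.19 for Stat3, 0.24 for Stat6 and 0.00 for Stat5b.

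Stat2 and Irf9 thus differed in the same direction but to unequal degrees. The ratio of Stat2 to Irf9 was 1.33 in the control and 1.81 in the TGFBR3-labelled library, a change of 0.44 (95% CI 0.38 to 0.50). Relative to Stat3, which signals for interleukin 6 and related cytokines, Stat2 went from 0.72 to 1.74 times its FPKM.

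Among the brakes of the route, Usp18, which removes ISG15 from proteins and blocks signaling at IFNAR2, stood apart from Socs1. Its FPKM was 142 in the TGFBR3-labelled library and 20.0 in the control, from 26970 and 5158 counts, with a log2 ratio of 2.77 (95% CI 2.73 to 2.81). Of the 12 brakes listed beside the SOCS genes, Usp18 was the only gene at least 2-fold higher, none was 2-fold lower, and the median was 0.06. Without the added 1, the scarce phosphatase gene Ptpn6 (13 and 75 counts), named after its values were seen, was past 2-fold lower. The phosphatases Ptpn11 (0.04) and Ptpn1 (−0.28), the adaptor Sh2b3 (−0.20) and the SUMO ligase Pias4 (0.07) were all short of 2-fold. Of the 7 other SOCS genes none was 2-fold changed, and their median was 0.11. Socs3, the STAT3-linked inhibitor, had an FPKM of 14.7 and 16.5, for a log2 ratio of −0.16 (95% CI −0.22 to −0.10) that was 0.09 after correction for GC content. The largest difference was that of Socs6, named after its values were seen, with an FPKM of 2.01 against 1.14, at 0.49 on the log2 scale (95% CI 0.43 to 0.56) but 0.09 after correction for GC content. Socs4 was at 0.26 (95% CI 0.18 to 0.35) and Socs5 at 0.10 (95% CI 0.05 to 0.14), and both were negative after correction for GC content (−0.19 and −0.09). Socs7 was at −0.02 (95% CI −0.09 to 0.06).

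The transcripts of the ligands were scarce. Of 21 interferon genes, 18 were not analysed here, among them Ifng. Ifnb1, which encodes interferon beta, had 9 counts and 3 counts, in the same order, and its share of the counts was 4.03 times that of the control (95% CI 1.01 to 23.2). Ifnz, of a family with near-identical copies, had 56 and 43 counts, a ratio of 1.75 (95% CI 1.16 to 2.67). Ifna4 had 0 counts in both libraries, which allows up to 3 counts in each. Their FPKM was at most 0.56.

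As a readout beyond the route itself, 32 interferon-stimulated genes were listed, of which 30 passed the 2-fold threshold upward. Their median log2 ratio was 2.42. The largest ratios were those of Cxcl9 (5.76), Cxcl10 (4.08), Irf7 (3.67) and Ifit3b (3.63), and abundant members were B2m (1.36), Bst2 (1.67), Ifit3 (3.45) and Isg15 (2.08). Irf1 (0.71) and Ciita (8 and 0 counts), named after their values were seen, were the remaining 2. Like Stat2, these are known interferon targets, and the list was compiled with results of these libraries known, so its count is not independent evidence. The part of the macrophage markers, whose summed level is given above, in these differences was not tested.

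**Figure D5:**
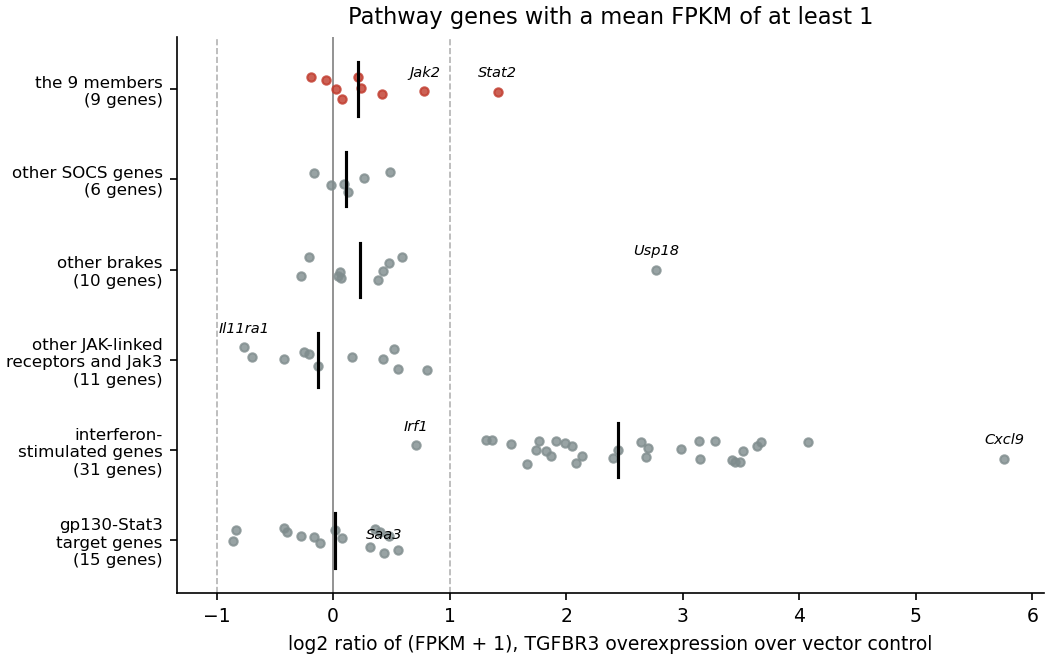
Log2 ratios of (FPKM + 1) for expressed genes (mean FPKM of 1 or more) in the member list and in 5 lists of related genes, with the median of each as a black bar and the 2-fold lines dashed. Past the upper line lie Stat2 of the members, Usp18 and most interferon-stimulated genes, whereas the other lists scatter around 0.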

How the data were processed

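RNA of 2 libraries of mouse FAPs, 1 per condition, was sequenced by the authors as paired reads of 150 nt. Per the labels, second strands were marked with dUTP. The authors mapped the reads to mm10. The submitters' processing notes name cutadapt 1.9, HISAT2 2.2.1, StringTie 2.1.6, DESeq2 and edgeR, whereas the paper's methods name STAR and FeatureCounts, and which of these made the tables is not given in the sources used here. The authors deposited raw counts per gene and FPKM values rounded to 2 decimals. Where the FPKM reached 5, 98.7% and 98.8% of genes had an FPKM within 1% of the count divided by exon length and a single total per library, with medians of 67868757 and 92424343 reads. These totals exceed the sums of the deposited counts.

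Differences were expressed as log2 ratios of (FPKM + 1), the TGFBR3 plasmid library divided by the vector control, with a threshold of 2-fold (1 or −1). Count models need replicates and none was run. Intervals are exact Clopper-Pearson intervals at 95% for how a gene's counts divide between the libraries, exact Poisson intervals for levels, and normal intervals on log counts for changes of a ratio between a pair of genes. Reads are not independent molecules, so that these intervals are too narrow. A count of 3 was the floor. The calculation was tested on simulated counts. The 8 alternative settings were a pseudocount of 0.1, the plain ratio, CPM, CPM scaled with TMM factors of edgeR 4.0.16, centring, a scale without the 50 highest genes, and removal of the median in 20 bins of GC content or exon length. Loci came from GENCODE release M21, which holds 99.7% of the gene identifiers, and promoter windows from RefSeq, where all 9 members were matched.

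The members and lists were chosen with earlier results of these data known. Named were all members, Tgfbr3, the genes between the receptor genes on chromosome 16, in each list the genes past 2-fold (the 4 with the largest ratio where more than 6 passed) and up to 4 others of the highest mean FPKM, and interferon genes with more than 3 counts, except that some items are not reported here. GC correction means removal of the trend over GC content. Analyses were run in Python 3.11.15 with scipy 1.17.1.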

Additional observations from a re-analysis of the deposited data

How the results depend on the processing

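Stat2 was the only member at least 2-fold higher under each of the 8 alternative settings, and none was 2-fold lower. At 1.5-fold, 2 members were higher. The difference between Stat2 and the median receptor chain was 1.56 with the GC trend removed and 1.26 with the exon length trend removed. Centring moved Tgfbr3 to −0.058. Of the 72 values of single members under the alternatives, 38 lay outside the counting interval of the main value. Among the 65 pathway genes outside the members and outside the interferon and interferon-stimulated genes, 2 were at least 2-fold higher and none lower, and the count of higher genes was 5 with a pseudocount of 0.1, 8 without one and 5 at 1.5-fold. The count of lower genes in this set was 1 with a pseudocount of 0.1, 1 without one, 3 with TMM scaling and 4 at 1.5-fold. The 3 genes were Il11ra1 (−1.02), Cebpd (−1.09) and Cebpb (−1.06), the last pair named after their values were seen. At 1.5-fold, 13.3% of the expressed genes were higher. No share over all genes is given for lower genes at 1.5-fold or for the pseudocount and TMM settings, so those counts are not read as a result. The signs of Ifnar1, Ifngr1 and Tyk2 depended on the setting, and the cause was not tested. No paired analysis was possible because each condition has 1 library, and for the same reason no library could be left out. The counting intervals of Tyk2 and Ifnar1 include 0. Their ratios ranged more widely over the alternative settings, from −0.29 to 0.04 for Tyk2 and from −0.19 to 0.03 for Ifnar1. Depth limits the interferon genes Ifnb1 and Ifna4, which lie near or under the floor.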

Other observations

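Receptors of other cytokines that signal through Janus kinases were listed as well, with Jak3, and 27 of 28 were analysed. With 1 added to the FPKM none was 2-fold changed, and their median log2 ratio was 0.00. No share over all genes is given without the added 1, so the count that follows is not read as a result about these chains. Without the added 1, 5 scarce chains were past 2-fold higher in the TGFBR3-labelled library, here named after their values were seen. They were Il15ra (341 and 177 counts, 2.64-fold), Il20rb (163 and 112 counts, 2.04-fold), Il2rg (56 and 18 counts, 4.25-fold), Il12rb1 (46 and 18 counts) and Epor (12 and 4 counts). Prlr (33 and 4 counts) has no such ratio, because its control FPKM was deposited as 0. The 95% CI of the plain log2 ratio was 1.14 to 1.67 for Il15ra, whereas for Il20rb (0.67 to 1.39) and Epor (0.28 to 4.09) it reached below 2-fold. The abundant chains nonetheless differed among themselves. Il6st, which encodes gp130, the signaling chain shared by interleukin 6 family receptors, had an FPKM of 90.2 in the TGFBR3-labelled library against 66.8 in the control, with a log2 ratio of 0.43 (95% CI 0.41 to 0.44). Il11ra1, the interleukin 11 chain that pairs with gp130, went the other way, with an FPKM of 15.8 against 27.6, a log2 ratio of −0.77 (95% CI −0.81 to −0.72), and −1.02 with TMM scaling. Il4ra, the chain that binds interleukin 4, was also lower, with an FPKM of 65.6 against 88.4 and a difference of −0.42 on the log2 scale.

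Of 16 target genes of gp130 and Stat3, 15 were analysed, none was 2-fold changed with 1 added to the FPKM or without it, 8 were higher and 7 were lower, with a median of 0.02. The most abundant were Timp1 (−0.11), Ccl2 (0.32), Saa3 (0.44) and Hp (−0.27). After correction for GC content, Ccl2 was at −0.088. The largest differences of this list, named after their values were seen, were those of Cebpd (−0.86) and Cebpb (−0.83). Both were past 2-fold lower with TMM scaling, as given above.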
